A study of Mus musculus with 24 samples.

Results

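Reactive gliosis is the response of the retina's own glia to injury, and it was followed here through 10 genes that are widely used to mark it: Gfap, Vim, Serpina3n, A2m, Lcn2, Cd44, Timp1, Cebpd, Flnc and S1pr3. The members were taken by gene symbol from the table of raw counts of nuclear genes, and all 10 were found among its 31346 genes. RNA sequencing of whole retinas, 1 retina per mouse, gave 24 libraries in 4 groups, each balanced between females and males. WT mice (C57BL/6J, n = 4) and the rd10 mice of both diet groups were kept in darkness to postnatal day 29 and then in vivarium light, and their retinas were taken on day 37 by the design text (day 36 by the label of the rd10 conditions). All rd10 groups carry the rd10 missense mutation of Pde6b, a subunit of the rod phosphodiesterase, in every cell of the body. The rd10 vehicle mice (n = 8) ate the base chow, and the rd10 TMB mice (n = 8) ate from day 28 the same chow with tamsulosin, metoprolol and bromocriptine, which are an alpha-1 adrenergic blocker, a beta-1 adrenergic blocker and a dopamine receptor agonist. The rd10 DR mice (n = 4) never left darkness, and were sampled on day 28 by the design text and day 30 by the label, so that light, age and disease stage cannot be told apart in any comparison with them. Both diet groups had an electroretinogram on day 36, while WT and DR mice had anaesthesia of similar length without it.

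Müller glia span the whole thickness of the retina, clear glutamate and potassium, and are the main cells that become reactive when photoreceptors die, together with the astrocytes of the nerve fibre layer. Reactive glia build intermediate filaments, of which the one made of Gfap is nearly absent from resting Müller cells, and they secrete protease inhibitors, iron-binding and matrix-modifying proteins. Cytokines of the interleukin-6 family, among them Lif, act through the shared receptor chain gp130 (gene Il6st) and the transcription factor Stat3, and this route is known in mouse retina to raise Gfap when rods degenerate.

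The 10 genes lie on 7 chromosomes (GENCODE M21 on GRCm38). Gfap spans chr11:102887336-102900912 on the minus strand, Vim chr2:13573927-13582826 on the plus strand, Serpina3n chr12:104406729-104414329 on the plus strand and A2m chr6:121635376-121679227 on the plus strand. Lcn2 spans chr2:32384633-32388252 and Cd44 chr2:102811141-102901665, both on the minus strand. Timp1 spans chrX:20870166-20874735, Cebpd chr16:15887286-15891031, Flnc chr6:29433256-29461883 and S1pr3 chr13:51408639-51422797, all on the plus strand. The counts carry no strand, and 15% of the exon bases of Cebpd overlap exons of Spidr, a DNA repair gene on the opposite strand at a median level of 11.4 CPM (counts per 1000000 counts of a library). S1pr3 shares 45 exon bases with the opposite-strand transcript Gm32834, and the exons of the other 8 members overlap no other annotated gene.

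Since most members rose together, the 250 bases before their RefSeq start sites (GRCm38.p6) were searched on both strands for 6 motifs. Promoters were at hand for 8 members, A2m and Cebpd being named only, and Flnc had 2 start sites. The motifs were the STAT motif TTCNNNGAA (in 7.02% of all 32851 promoters of that length), the AP-1 motif TGANTCA (6.75%), the C/EBP motif TTGCNNAA (9.56%), the CArG box (1.47%), the TATA box TATAAA (12.4%) and the GC box GGGCGG (32.7%), and no match to one of these motifs lay over a match to another. No STAT, AP-1 or CArG match lay in the windows of the 8 members. The C/EBP motif, which the protein family of Cebpd binds, occurred in the window of Lcn2 alone, a TATA box in that of Vim, and GC boxes in those of Lcn2, Timp1, Flnc and S1pr3. The windows of Gfap, Vim and Lcn2 lie inside the GENCODE spans of these genes. Annotated exons cover all 250 bases of the Vim window and 197 of the 250 bases of the Lcn2 window. The sequences shown are those of the members on which the results turn, namely the filament gene Gfap, the secreted inhibitor Serpina3n and the widest-ranging gene Flnc, each as the 250 bases before the start site, and 30 bases of Lcn2 around its C/EBP match at base -216. Capitals mark the motif matches, which in Flnc are 3 GC boxes, a pair of them overlapping.
Gfap, chr11:102897201-102897450, minus strand: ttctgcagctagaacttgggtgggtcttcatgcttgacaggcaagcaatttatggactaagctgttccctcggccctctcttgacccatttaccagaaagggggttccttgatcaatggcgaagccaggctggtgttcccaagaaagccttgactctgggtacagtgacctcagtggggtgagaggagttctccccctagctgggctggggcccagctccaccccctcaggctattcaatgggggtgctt
Serpina3n, chr12:104406458-104406707, plus strand: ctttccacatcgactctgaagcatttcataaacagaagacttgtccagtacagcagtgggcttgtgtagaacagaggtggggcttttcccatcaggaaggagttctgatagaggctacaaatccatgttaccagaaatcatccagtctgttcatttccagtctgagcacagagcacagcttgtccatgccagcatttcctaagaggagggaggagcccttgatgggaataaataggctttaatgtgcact
Flnc, chr6:29432903-29433152, plus strand: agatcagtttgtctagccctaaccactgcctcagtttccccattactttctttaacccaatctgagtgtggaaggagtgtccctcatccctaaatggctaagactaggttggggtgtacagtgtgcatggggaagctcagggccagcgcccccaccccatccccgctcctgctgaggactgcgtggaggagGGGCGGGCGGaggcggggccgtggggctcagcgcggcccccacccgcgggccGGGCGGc
Lcn2, chr2:32387937-32387966, minus strand: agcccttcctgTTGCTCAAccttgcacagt
A match describes letters only, and the absence of one says only that these letters are not in this window.

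The libraries held 56799680 to 86471014 counts of nuclear genes. Levels are CPM after trimmed-mean (TMM) scaling, so that they are relative to the bulk of genes, and a lower share of cells of a type cannot be told apart from less RNA per cell in whole retinas. The 6 rod markers summed to 69300 to 78300 CPM in WT, 41700 to 46000 in DR, 6330 to 21400 in vehicle and 15800 to 33400 in TMB retinas. Without TMM scaling the median over all genes, in log2 units, moved from 0.015 to 0.218 for vehicle against WT, from 0.004 to 0.17 for TMB against WT, from 0.017 to 0.117 for vehicle against DR and from 0.004 to 0.092 for DR against WT. The counts of members called were the same with and without it in all of these comparisons. All comparisons with WT share the 4 WT retinas, and all with vehicle the 8 vehicle retinas. Vehicle retina 4, a female, had the highest level of all 10 members in its group, so the changes of the members that involve vehicle retinas are given with and without it. The standard error (SE) beside a fold change is that of the log2 fold change given with it, and an adjusted p is that of edgeR's quasi-likelihood F test over all genes tested, called below 0.05.

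The comparison of vehicle with WT retinas describes gliosis in the degenerating retina. All 10 members rose, and their median log2 fold change was 2.94 against 0.0149 for all genes tested. Among the 20763 genes tested, 31.6% rose and 30.2% fell. Without TMM scaling 9337 rose and 3574 fell, in place of 6563 and 6275. The groups did not overlap for 9 of the 10 members, Vim being the exception, where 21.6% of all genes lay wholly higher in vehicle. Without vehicle retina 4 all 10 members still rose and the median was 2.48, where 31.3% of genes rose.

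Gfap encodes the intermediate filament protein by which reactive Müller cells are most often recognised. It stood at 45.2, 40.2, 32.8 and 34.0 CPM in the 4 WT retinas and at 254, 214, 176 and 178 CPM in the 4 DR retinas. Vehicle retinas ranged from 166 CPM through a median of 243 to 577 CPM in retina 4, the other 7 ending at 276 CPM, and TMB retinas from 163 through 197 to 227 CPM. Every rd10 retina thus lay above every WT retina, while the 3 rd10 groups overlapped. Gfap was 7.24-fold higher in vehicle than in WT retinas (log2 fold change 2.86, SE 0.294, adjusted p = 1.22e-06) and 6.10-fold higher without retina 4. In DR retinas, which had not seen vivarium light, it was 5.48-fold above WT (2.46, SE 0.132, adjusted p = 1.4e-06).

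Vim encodes vimentin, the filament protein that resting Müller cells already contain. It stood at 160, 153, 388 and 133 CPM in WT, and at 313, 258, 239 and 243 CPM in DR retinas. Vehicle retinas ranged from 272 through 328 to 575 CPM and TMB retinas from 261 through 306 to 585 CPM, the last in TMB retina 3. WT retina 3 lay above 7 of the 8 vehicle retinas, so that the groups overlapped. Vim was 1.68-fold higher in vehicle than in WT (0.75, SE 0.265, adjusted p = 0.0231), and the call was lost without WT retina 1, 2 or 4 (log2 fold change 0.59 to 0.64, adjusted p = 0.0786 to 0.0836). Vim also missed the threshold with a robust estimate of the spread (adjusted p = 0.0558), and with only the vehicle retinas whose sample titles begin with RD10 or with RD9 (0.0762 and 0.0902). Without WT retina 3 it was 2.36-fold higher (1.24, SE 0.184, adjusted p = 4.69e-05) with the groups apart, and without vehicle retina 4 it was 1.53-fold higher. WT retina 3 also held the highest WT levels of the astrocyte markers S100b (20.7 CPM, the other 3 at 10.8 to 12.7) and Pdgfra (50.3 CPM, the others at 16.9 to 21.9). The remaining astrocyte marker counted here, Pax2, was not highest in that retina (0.347 to 1.04 CPM over the 4 WT retinas). The part of astrocytes in the result was not tested.

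The secreted protease inhibitors showed the widest spread in WT. Serpina3n, a serine protease inhibitor of reactive astrocytes, stood at 30.4, 4.51, 42.4 and 3.31 CPM in WT and at 93.2, 88.8, 76.6 and 67.3 CPM in DR retinas. It ranged from 137 through 159 to 298 CPM in vehicle and from 133 through 155 to 229 CPM in TMB retinas. WT retinas 1 and 3 were on average 9.30 times as high as WT retinas 2 and 4, yet the 4 WT retinas lay below all rd10 retinas. Serpina3n was 8.67-fold higher in vehicle than in WT (3.12, SE 0.577, adjusted p = 0.000293), 7.78-fold higher without vehicle retina 4 and 13.8-fold higher without WT retina 3. Without both WT retinas 1 and 3, a pair chosen after the data were seen, it was 44.5-fold higher.

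A2m encodes alpha-2-macroglobulin, which traps proteases of all classes. It stood at 29.5, 12.3, 44.2 and 9.26 CPM in WT and at 101, 117, 86.4 and 79.1 CPM in DR retinas, and ranged from 146 through 198 to 325 CPM in vehicle and from 163 through 188 to 255 CPM in TMB retinas. The same WT retinas 1 and 3 were 3.42 times as high as the other WT retinas. A2m was 8.68-fold higher in vehicle than in WT (3.12, SE 0.377, adjusted p = 5.87e-06), and 7.96-fold higher without vehicle retina 4. Timp1, the inhibitor of matrix metalloproteinases that injured glia release, was the least abundant by counts, with 20 to 110 counts in a WT retina. It rose from 0.297 to 1.82 CPM in WT to 4.17 to 6.19 CPM in the 7 vehicle retinas other than retina 4, which held 24.1 CPM (8.78-fold, log2 fold change 3.13, SE 0.624, adjusted p = 0.000536). The fold was 5.89 without that retina and 14.4 without WT retina 3.

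Lcn2 encodes lipocalin-2, which binds iron-loaded siderophores and is released by reactive astrocytes. It stood at 3.94, 3.92, 5.85 and 4.10 CPM in WT and at 22.1, 24.5, 24.7 and 15.5 CPM in DR retinas, and ranged from 15 through 24.1 to 123 CPM in vehicle and from 14.3 through 26.4 to 34.9 CPM in TMB retinas. Leaving out the retina at 123 CPM lowered the fold of vehicle over WT from 8.09 to 5.29 (log2 fold change 3.02, SE 0.555 and 2.40, SE 0.181, adjusted p = 0.000276 and 1.87e-07). Cebpd, a transcription factor of the acute phase response, stood at 8.29, 6.80, 5.91 and 6.28 CPM in WT and at 61.3, 28.1, 46.5 and 39.0 CPM in DR retinas. It ranged from 25.0 through 35.8 to 144 CPM in vehicle and from 36.9 through 43.6 to 61.5 CPM in TMB retinas. Cebpd was 7.02-fold higher in vehicle than in WT with retina 4 and 4.97-fold higher without it (adjusted p = 0.000136 and 1.67e-07).

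The receptors and the cytoskeletal member rose as well. Cd44, the receptor for hyaluronan on the tips of Müller cells, went from 8.04 to 22.9 CPM in WT to 49.9 to 75.4 CPM in the 7 vehicle retinas and 137 CPM in retina 4 (5.45-fold, log2 fold change 2.45, SE 0.332, adjusted p = 1.75e-05, or 4.69-fold without retina 4). S1pr3, a receptor for sphingosine 1-phosphate, went from 14.8 to 28.8 CPM to 58.5 to 83.2 CPM and 119 CPM in retina 4 (3.54-fold, 1.82, SE 0.201, adjusted p = 2.39e-06, or 3.27-fold without retina 4). Flnc encodes filamin C, an actin cross-linker known best from muscle, and it depended most on 1 library. It stood at 2.85, 1.66, 3.14 and 1.69 CPM in WT and at 15.9, 9.77, 8.64 and 6.77 CPM in DR retinas, at 15.1 to 19.4 CPM in 7 vehicle retinas and at 405 CPM in vehicle retina 4, and at 15 to 19.5 CPM in 7 TMB retinas with 39.2 CPM in TMB retina 2. Its fold over WT was 28.5 with vehicle retina 4 and 7.52 without it (log2 fold change 4.83, SE 1.25 and 2.91, SE 0.173, adjusted p = 0.00371 and 4.07e-08). The 6 skeletal muscle markers summed to 5.08 CPM in vehicle retina 4 and to 4.26 to 5.64 CPM over the 8 vehicle retinas.

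**Figure D1:**
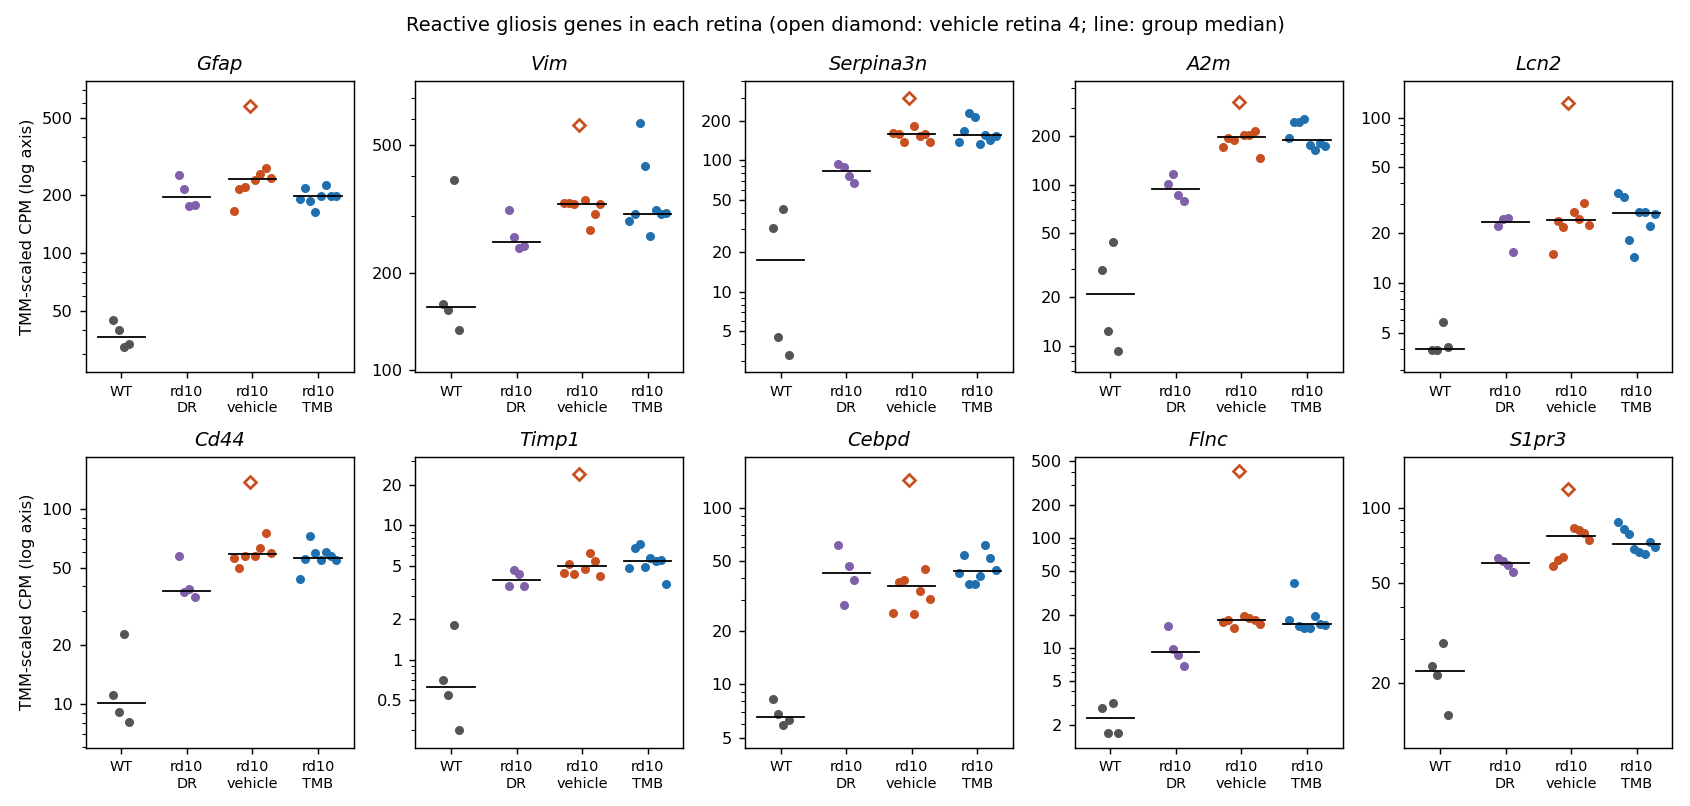
TMM-scaled CPM of the 10 reactive gliosis genes (log axes) in each of the 24 retinas by group. Points are retinas, the open diamond is vehicle retina 4 and lines are group medians. For 9 genes all rd10 retinas lie above all WT retinas, Vim being the exception because of WT retina 3 at 388 CPM.

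The comparison of DR with WT retinas sets rd10 retinas that never saw vivarium light against WT retinas that were older and had seen it. Of the 10 members 9 rose and Vim did not pass the test (log2 fold change 0.35, SE 0.295, adjusted p = 0.433), with a median of 2.09 against 0.00372 for all genes. Among 20051 genes tested 14.5% rose and 10.2% fell (4366 and 1171 without TMM scaling, in place of 2914 and 2041), and 14.6% lay wholly higher in DR retinas, as did 9 members. Cebpd rose 6.49-fold (2.7, SE 0.209, adjusted p = 1.25e-05), Lcn2 4.92-fold (2.30, SE 0.183, adjusted p = 1.55e-05), Timp1 4.86-fold (2.28, SE 0.423, adjusted p = 0.00291) and Flnc 4.45-fold (2.16, SE 0.293, adjusted p = 0.000463). A2m rose 4.07-fold (2.02, SE 0.409, adjusted p = 0.00473), Cd44 3.33-fold (1.73, SE 0.306, adjusted p = 0.0022) and S1pr3 2.74-fold (1.45, SE 0.162, adjusted p = 0.000136). Serpina3n passed narrowly at 4.08-fold (2.03, SE 0.644, adjusted p = 0.0414), and lost the call without any 1 of the 4 DR retinas or WT retina 1, 2 or 4 (adjusted p = 0.0518 to 0.0861). The call was also lost with a robust estimate of the spread (adjusted p = 0.145) and with sex as a term (0.0616). Without WT retina 3 all 10 members rose, Vim with a log2 fold change of 0.83 (adjusted p = 2.37e-05), Serpina3n 6.53-fold and Timp1 8.0-fold. The share of all genes that rose in that fit is not given here. Flnc was not called in 1 fit over all 4 groups (adjusted p = 0.105).

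Vehicle retinas were then compared with DR retinas, which differ from them in light, age and stage. The protease inhibitors Serpina3n and A2m rose further and separated the groups, with every vehicle retina above every DR retina. Serpina3n was 2.13-fold higher (1.09, SE 0.182, adjusted p = 0.000206) and A2m 2.14-fold higher (1.10, SE 0.169, adjusted p = 0.000108), and without vehicle retina 4 the folds were 1.91 and 1.96. In all, 6 members rose, the others being Vim (0.41, SE 0.156, adjusted p = 0.0452), Cd44 (0.72, SE 0.237, adjusted p = 0.0232), Flnc (2.69, SE 1.04, adjusted p = 0.0484) and S1pr3 (0.38, SE 0.147, adjusted p = 0.0491). The median over the 10 was 0.72 against 0.0168 for all genes, 21.9% of 20850 genes rose and 20.6% fell (6585 and 2888 without TMM scaling, in place of 4572 and 4301), and 13.7% lay wholly higher in vehicle. The same 6 genes rose without vehicle retina 4, where the median over the 10 was 0.28 and 21.8% of genes rose, and the log2 fold change of Flnc was then 0.76. The other 4 calls were close to the threshold. Vim was not called with DESeq2 (adjusted p = 0.105) or in 1 fit over all 4 groups (0.185). S1pr3 was not called with DESeq2 (0.0915), and with sex as a term neither S1pr3 (0.0578) nor Flnc (0.0647) was. The shares of all genes called in these alternative fits are not given here. Without DR retina 2, 3 or 4 the calls left were those of Serpina3n and A2m, as with a robust estimate of the spread, and 4 were left without DR retina 1 or vehicle retina 5 or 8.

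Gfap, Lcn2, Timp1 and Cebpd did not pass the test between vehicle and DR retinas. Gfap differed by a log2 fold change of 0.42 (95% interval -0.076 to 0.908, adjusted p = 0.199) and by 0.17 without vehicle retina 4 (-0.071 to 0.406). Lcn2 differed by 0.73 with and 0.11 without that retina, and Timp1 by 0.86 with and 0.28 without it (adjusted p = 0.225 and 0.589, and 0.134 and 0.0822). Cebpd differed by 0.13 (-0.676 to 0.929, adjusted p = 0.825), and by -0.37 without vehicle retina 4 (-0.731 to -0.0113, unadjusted p = 0.0614, adjusted p = 0.119). That last interval leaves out 0 only because it is narrower than the F test would give. A further fit took only rd10 retinas whose sample titles begin with RD10 (4 of the vehicle and all 4 DR retinas). No source used here explains that prefix. Serpina3n, A2m, Vim, Cd44 and Flnc rose in that fit, and S1pr3 was at 0.16 (adjusted p = 0.217). What share of all genes rose in that fit is not given here, so these calls have no background to be set against.

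**Figure D2:**
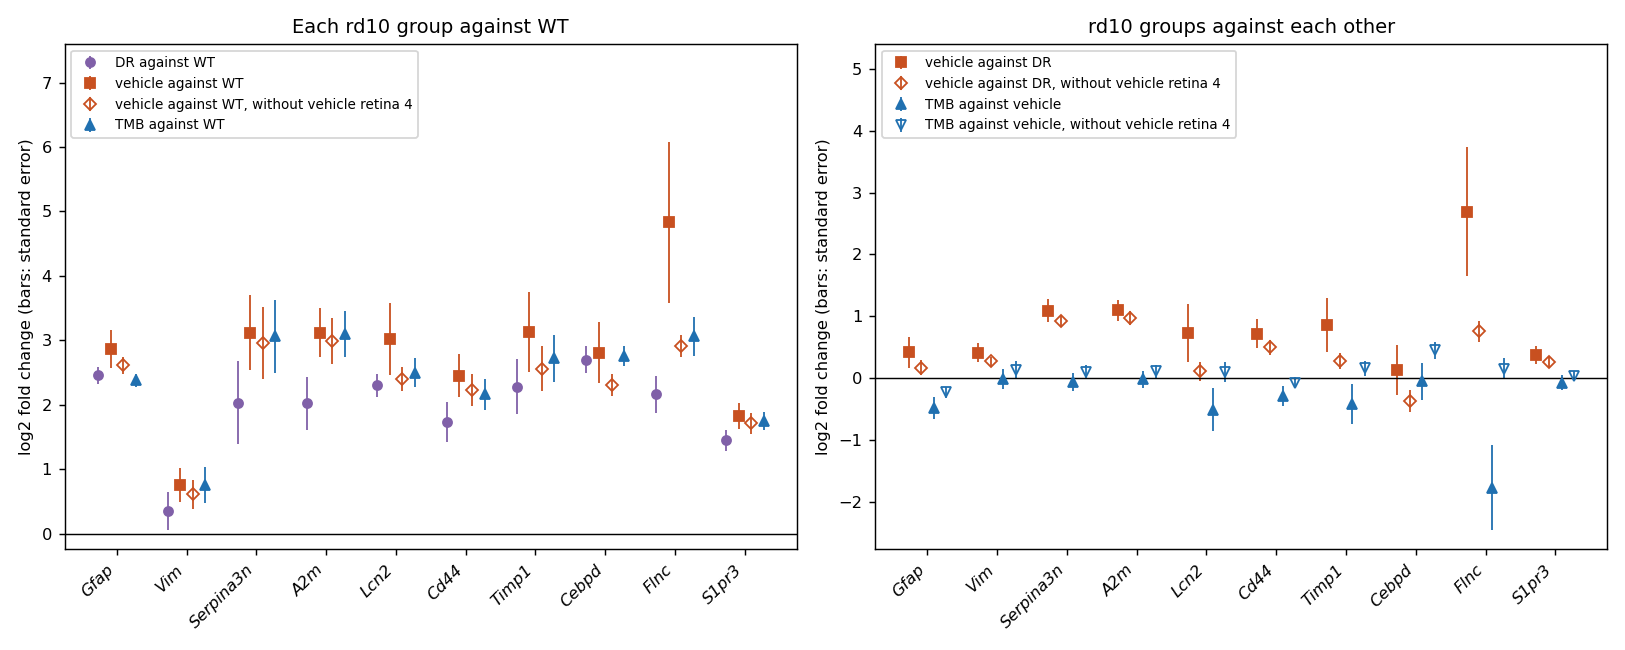
Log2 fold changes with standard errors for the 10 genes, each rd10 group against WT on the left and the rd10 groups against each other on the right. Open symbols leave out vehicle retina 4. On the right, Serpina3n and A2m stand clear of 0 for vehicle against DR either way, while Flnc moves from 2.69 to 0.76, and for TMB against vehicle from -1.77 to 0.15.

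Whether the drug diet changed gliosis is addressed by TMB against vehicle. None of the 10 members was called by edgeR, where 3.37% of 20251 genes rose and 2.32% fell (656 and 1041 without TMM scaling, in place of 683 and 469), and 2 members had an unadjusted p below 0.05. DESeq2 called 1, Cebpd, and the share of all genes that DESeq2 called is not given here. The median over the members was -0.18 against 0.000427 for all genes, and the groups overlapped for all 10, where 0.0988% of all genes lay wholly higher and 0.193% wholly lower. Gfap was at a log2 fold change of -0.48 (95% interval -0.834 to -0.129, unadjusted p = 0.0151, adjusted p = 0.118), with a mean of 197 ± 19.6 CPM in TMB (SD, n = 8) and 275 ± 127 CPM in vehicle retinas (n = 8). Without vehicle retina 4 the vehicle mean was 231 ± 35.6 CPM (n = 7), and the difference of Gfap was -0.23 (-0.403 to -0.0613, unadjusted p = 0.0159, adjusted p = 0.134). Flnc was at -1.77 (-3.12 to -0.426, adjusted p = 0.131) and, without that retina, at 0.15 (-0.186 to 0.48, adjusted p = 0.696).

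When vehicle retina 4 was left out, all 10 members again missed the threshold, where 1.42% of 20383 genes rose and 0.77% fell, and 8 of the 10 log2 fold changes were above 0 in place of 0 of 10. Cebpd moved from -0.05 (95% interval -0.632 to 0.527, adjusted p = 0.948) to 0.45 (0.187 to 0.704, adjusted p = 0.0663). DESeq2, which replaces a count that stands far from the others of a large group, gave it 0.41 (adjusted p = 0.0191) with all 16 retinas. For the remaining 7 members the intervals without vehicle retina 4 included 0. They were -0.132 to 0.402 for Vim, -0.114 to 0.314 for Serpina3n, -0.0926 to 0.314 for A2m and -0.244 to 0.11 for Cd44. Those of Lcn2, Timp1 and S1pr3 were -0.225 to 0.424, -0.0872 to 0.406 and -0.12 to 0.207. Within the RD10 titles (4 vehicle and 5 TMB retinas) 7 of the 10 differences were above 0, from 0.09 for S1pr3 to 0.54 for Cebpd, and within the RD9 titles (3 and 3, vehicle retina 4 among them) all 10 were below 0. No member was called in either. The difference between the sexes in the change with the diet was called for 0 of the 10 members by edgeR (adjusted p = 1.0 for each), with 0 at an unadjusted p below 0.05, and for 0.0% of 21272 genes, and no other tool was run on it. Without vehicle retina 4 it was called for 0 as well, with 3 at an unadjusted p below 0.05, S1pr3 (0.58, female minus male, adjusted p = 0.472), A2m (0.49) and Serpina3n (0.42, adjusted p = 0.995 for both).

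Against WT the TMB retinas gave values beside those of vehicle retinas, with the same WT retinas in both. All 10 members rose in TMB retinas, at a median of 2.61 in log2 units against 0.0037 for all genes, where 27.2% of 20848 genes rose and 24.9% fell (8132 and 2740 without TMM scaling, in place of 5678 and 5201). The groups were apart for 9 members, where 17.5% of all genes lay wholly higher. Gfap was 5.19-fold above WT (2.38, SE 0.102, adjusted p = 3.05e-09), A2m 8.59-fold (3.10, SE 0.361, adjusted p = 6.37e-06), Flnc 8.33-fold (3.06, SE 0.304, adjusted p = 1.6e-06) and Serpina3n 8.31-fold (3.06, SE 0.563, adjusted p = 0.00038, or 13.3-fold without WT retina 3). Cebpd, Timp1, Lcn2, Cd44 and S1pr3 were 6.78-fold, 6.58-fold, 5.67-fold, 4.47-fold and 3.37-fold above WT (adjusted p = 2.45e-08 to 2.21e-05), with Timp1 at 10.8-fold without WT retina 3. Vim was 1.68-fold above WT (0.75, SE 0.28, adjusted p = 0.0366), and was not called without WT retina 1, 2 or 4 or TMB retina 3 or 4 (adjusted p = 0.0543 to 0.123). Nor was Vim called with a robust estimate of the spread (adjusted p = 0.0819), sex as a term (0.0512), DESeq2 (0.0714) or RD9 titles only (0.304). Without WT retina 3 it was 2.36-fold above WT (1.24, SE 0.212, adjusted p = 0.000211) with the groups apart. Without TMB retinas 2, 3 and 4, whose 5 pigment epithelium markers summed to 508 to 779 CPM against at most 191 CPM in the other TMB retinas, 9 members rose, and Vim was at 0.50 (adjusted p = 0.13). That set was chosen after the data were seen, the share of all genes that rose without it is not given here, and the part of those cells in the result was not tested.

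Vehicle retina 4 was the highest of the 8 vehicle retinas for 10 of 10 members, where it was the highest for 13.3% of the 20763 genes tested. Its ratio to the median of the other 7 was 22.8 for Flnc, a ratio that 0.0482% of all genes reached. The ratios were 5.18 for Lcn2, 5.07 for Timp1 and 4.29 for Cebpd (reached by 0.284%, 0.313% and 0.395% of genes), 2.40 for Gfap and 2.38 for Cd44. They were lowest for Serpina3n, Vim, A2m and S1pr3, at 1.89, 1.75, 1.68 and 1.59, and the median ratio of all genes was 0.994. The members thus stood unevenly high in that retina. Lif, the cytokine upstream of gp130, stood at 209 CPM in vehicle retina 4 and at 3.02 to 4.85 CPM in the other 7, a ratio of 48.9. Socs3, a direct target and inhibitor of Stat3 signalling, stood at 246 CPM against 12.1 to 19.1 CPM, and Osmr, the oncostatin M receptor, at 115 CPM against 37.6 to 63.8 CPM. The route was not raised throughout. Of its 11 genes tested 6 were highest in that retina, at a median ratio of 1.07, with Il6st at 1.07, Jak1 and Jak2 at 1.06, Lifr at 0.895 and Cntf at 0.414. Of the 8 markers of resting Müller glia 1 was highest there, Sox9, a transcription factor, at 81.4 CPM against 23.1 to 29.1 CPM in the other 7. The other Müller markers had ratios of 0.719 to 0.984, and the sum of all 8 was 5510 CPM, the lowest of the vehicle group (up to 6880). Microglia and macrophage markers summed to 331 CPM against 290 to 333 CPM over the group. Pigment epithelium markers summed to 244 CPM in vehicle retina 4, the highest of a group that began at 96.4 CPM. The 5 neutrophil markers in the table summed to at most 0.513 CPM in any vehicle retina, so these cells' defining markers were near 0.

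**Figure D3:**
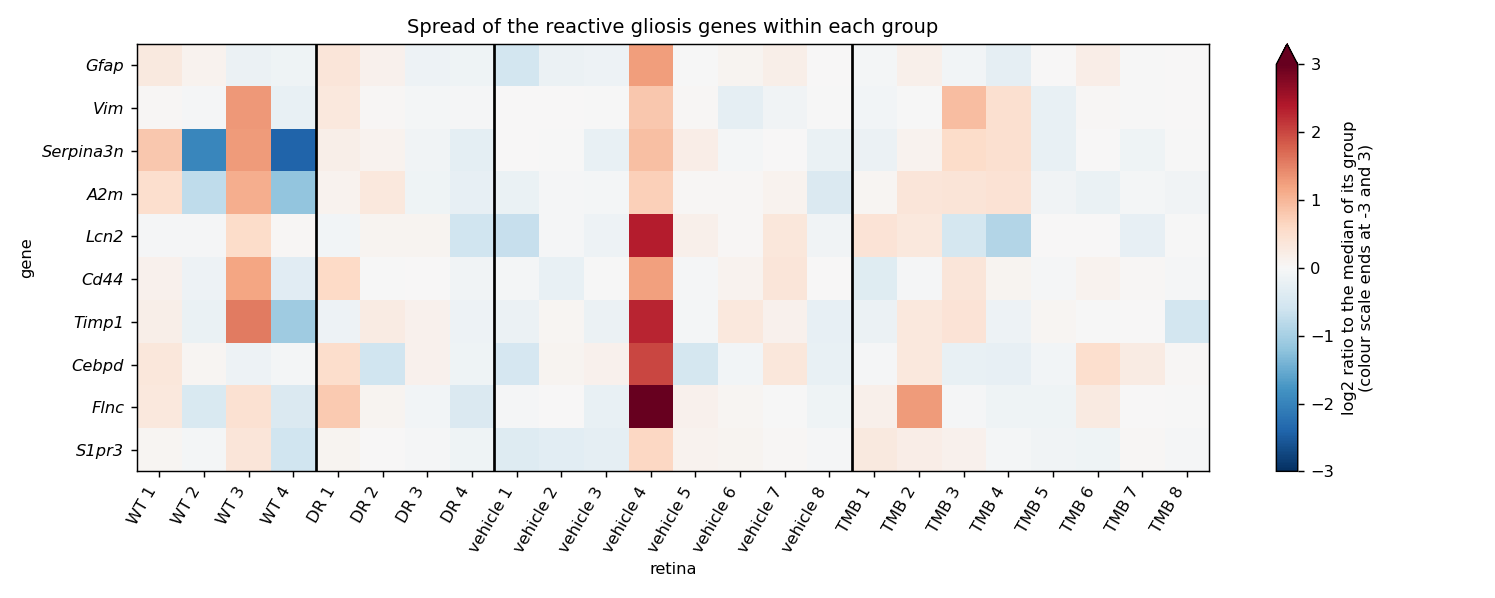
Log2 ratio of each retina to the median of its own group for the 10 genes, with vertical lines between groups. Vehicle retina 4 is above its group for every gene, beyond the end of the scale for Flnc at 405 CPM against a median of 17.8 CPM over the other 7, and WT retina 3 is above its group for Vim, Serpina3n, A2m, Cd44 and Timp1.

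Within groups the members did not move as 1 block. After group means were subtracted, the 45 pairs of members had correlations of 0.20 to 0.94 (median 0.69) over the 24 retinas, and of -0.25 to 0.94 (median 0.44, 39 above 0) over 23 retinas without vehicle retina 4. These are descriptions over retinas that share a group and a library, with no test. Serpina3n and A2m were the pair most alike in both sets, at 0.94, and among the 19 rd10 retinas without vehicle retina 4 their correlation was 0.75. In those 19 retinas Vim and Serpina3n were most alike at 0.83, and Vim and Lcn2 least at -0.54. TMB retina 3 shows the split, being the highest of its group for Vim at 585 CPM and Serpina3n at 229 CPM but at 18.2 CPM for Lcn2, where only TMB retina 4 was lower. TMB retina 4 likewise stood high for Vim (430 CPM) and Serpina3n (215 CPM) and held the lowest Lcn2, at 14.3 CPM. Pigment epithelium markers summed to 704 and 779 CPM in TMB retinas 3 and 4, and to 508 CPM in TMB retina 2, where Lcn2 was at 32.9 CPM. TMB retina 3 held the highest TMB levels of the astrocyte markers S100b (25.1 CPM, the other 7 at 15.8 to 19.2) and Pdgfra (71.5 CPM, the others at 33.5 to 42.8). Pax2, also an astrocyte marker, was not highest there (1.0 to 1.46 CPM over the 8 TMB retinas). The part of these cells was not tested. Among 16030 other genes with a mean of at least 1 CPM, the 5 whose levels within groups were most like the mean of the members over the 24 retinas were Tnfrsf1a (r = 0.959), Tagln2 (0.941), Vcl (0.941), Ctsc (0.935) and Tmbim1 (0.932). Without vehicle retina 4 their values were 0.923, 0.820, 0.866, 0.860 and 0.824. Tnfrsf1a, a receptor for tumour necrosis factor, remained first and stood at 9.24 to 20.2 CPM in WT, 30.4 to 38.5 CPM in DR, 38.8 to 95.9 CPM in vehicle and 36.0 to 47.0 CPM in TMB retinas.

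Other genes that reactive astrocytes share across kinds of injury were counted beside the members. Of 6 tested, 6 rose in vehicle against WT (median 3.24, or 2.25 without vehicle retina 4), 5 in DR against WT, 4 in vehicle against DR and 0 in TMB against vehicle by edgeR, where none fell. Cxcl10, without vehicle retina 4, fell in vehicle against DR (-1.85, SE 0.278, adjusted p = 9.72e-05) and rose in TMB against vehicle (1.52, SE 0.381, adjusted p = 0.0467). Steap4, a metalloreductase, was at 4.08 (SE 0.493, adjusted p = 5.74e-06), Aspg, an asparaginase, at 4.01 (SE 0.538, adjusted p = 1.58e-05) and Cxcl10, a chemokine, at 3.72 (SE 1.21, adjusted p = 0.0151) in vehicle against WT. Without vehicle retina 4, which held 11.2 CPM of Cxcl10 against 0.427 to 0.833 CPM in the other 7, Cxcl10 was at 1.97 (SE 0.303, adjusted p = 7.2e-05). In DR against WT they were at 3.13, 3.65 and 3.84 (adjusted p = 0.000227, 0.000211 and 9.44e-05). Of 11 genes tested that mark the astrocyte state evoked by inflammation, called A1, 9 rose in vehicle against WT and none fell (median 1.10). Among them Serping1, which blocks the first complement proteases, rose at 3.11 (SE 0.318), Gbp2, an interferon-induced GTPase, at 2.57 (SE 0.261) and Psmb8, an immunoproteasome subunit, at 1.84 (SE 0.145, adjusted p = 1.33e-07 to 1.13e-06). Of 10 genes tested of the state evoked by ischemia, called A2, 6 rose (median 1.47), led by Ptgs2, a prostaglandin synthase (3.02, SE 0.793, adjusted p = 0.00424, or 2.03, SE 0.209, without vehicle retina 4), and in DR against WT 2 of 9 rose (median 0.45), against 8 of 11 A1 genes (median 1.39). In TMB against vehicle 1 A1 gene fell, Amigo2 (-0.18, SE 0.0447, adjusted p = 0.031, and 0.0573 without vehicle retina 4), and no A2 gene passed. Leaving that retina out, 1 A2 gene fell, Ptgs2 (-0.64, SE 0.162, adjusted p = 0.0478), and without TMM scaling 1 fell as well. In vehicle retina 4 the highest level of the group was held by 7 of the 10 A2 genes and 3 of the 11 A1 genes, with Clcf1, a cytokine of the interleukin-6 family, at 42.3 CPM against 4.49 to 6.25 CPM and Ptgs2 at 10 CPM against 0.954 to 1.40 CPM.

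The genes of the gp130 and Stat3 route rose in part. Of 11 tested in vehicle against WT, 6 rose and 1, the receptor Lifr, fell (8 and 1 without TMM scaling). Lif rose from 0.401 to 0.496 CPM in WT to 2.20 to 6.88 CPM in DR retinas (3.11, SE 0.342, adjusted p = 0.000124), and in vehicle against WT it was at 6.03 (SE 1.74, adjusted p = 0.00765), or 3.18 (SE 0.168, adjusted p = 1.78e-08) without vehicle retina 4. Socs3 was at 3.38 (SE 0.974, adjusted p = 0.00762) in vehicle against WT, or 1.87 (SE 0.141, adjusted p = 1.94e-07) without vehicle retina 4, and at 2.27 (SE 0.211, adjusted p = 3.98e-05) in DR against WT, and Il6ra, the interleukin-6 receptor, at 2.79 and 1.26 (adjusted p = 0.000412 and 0.00228). In TMB retinas Lif stood at 48.8 CPM in retina 1 and 93.9 CPM in retina 2 and at 2.27 to 5.43 CPM in the other 6. The same TMB retinas 1 and 2 held the highest Lcn2 of their group, at 34.9 and 32.9 CPM, and the highest S1pr3, at 88.3 and 82.3 CPM. The 2 retinas differed for other members. In TMB retina 1 Gfap (190 CPM) and Cebpd (42.7 CPM) lay below their group medians and Cd44 (43.5 CPM) was the lowest of the group. In TMB retina 2 Gfap (219 CPM) and Cebpd (53.9 CPM) lay above their group medians, and Cd44 (55.1 CPM) lay below its median of 56.2 CPM. Flnc was highest of the group in TMB retina 2, at 39.2 CPM. Socs3 stood at 21.2 and 24.1 CPM in TMB retinas 1 and 2, within the 15.2 to 26.8 CPM of the group. A link of these levels to Lif was not tested. In TMB against vehicle 1 of 10 genes rose, Lifr (0.34, SE 0.078, adjusted p = 0.0258). Without vehicle retina 4, 2 rose, among them Socs3 (0.51, SE 0.126, adjusted p = 0.0459).

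Relatives of the members by family were mixed. Of 16 tested in vehicle against WT, 11 rose and 1 fell (median 0.75), where 13 rose and 1 fell without TMM scaling. Cebpa and Cebpb, which like Cebpd are C/EBP transcription factors, rose 5.19-fold and 3.89-fold (2.38, SE 0.16, adjusted p = 4.62e-08 and 1.96, SE 0.438, adjusted p = 0.00135), and Nes, the filament protein nestin, was at 1.53 (SE 0.528, adjusted p = 0.0206), or 0.84 (SE 0.097) without vehicle retina 4. In DR against WT 5 of 16 rose (8 without TMM scaling), in vehicle against DR 8 of 17 rose and 2 fell (8 and 0 without TMM scaling), and in TMB against vehicle 0 of 16 passed.

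Markers of other retinal cell types and of resting glia were counted in the same comparisons. The 8 markers of resting Müller glia all rose in vehicle against WT (median 0.76), led by Sox9 (1.45, SE 0.325, adjusted p = 0.00137), Aqp4 (1.02, SE 0.0913, adjusted p = 3.47e-07) and Kcnj10 (0.88, SE 0.0864, adjusted p = 8.06e-07). In DR against WT 5 of 8 rose (median 0.26), in vehicle against DR 8 of 8 rose (median 0.50), and in TMB against vehicle 1 fell, Aqp4 (-0.26, SE 0.0693, adjusted p = 0.0376), and without vehicle retina 4 both Aqp4 and Glul fell (-0.28 and -0.21, adjusted p = 0.0457 and 0.0453). Their sum was 3940 to 4530 CPM in WT, 4230 to 4630 in DR, 5510 to 6880 in vehicle and 5280 to 6480 in TMB retinas. All 12 markers of microglia and macrophages rose in vehicle and in DR against WT (medians 2.59 and 2.07), 11 of 12 rose in vehicle against DR (median 0.48), and 0 of 12 passed in TMB against vehicle. The complement subunits C1qc, C1qa and C1qb were at 2.78, 2.74 and 2.7 in vehicle against WT (adjusted p = 7.07e-10 to 4.79e-09). Of the 3 retinal astrocyte markers, Pax2 was at 1.21, Pdgfra at 0.75 and S100b at 0.70 in vehicle against WT (adjusted p = 0.00189 to 0.0213), 0 of 3 passed in DR against WT, and 0 of 3 in TMB against vehicle. All 6 rod markers fell in vehicle against WT (median -2.45) and in DR against WT (median -0.75), and rose in TMB against vehicle (median 0.84), where 0 of 6 passed without vehicle retina 4 (median 0.78). Among the pigment epithelium markers, Rpe65, Rgr and Lrat fell in DR against WT (-1.67, -1.51 and -1.32), and Ttr, Rpe65, Lrat and Rgr rose in vehicle against DR (2.23, 2.06, 1.76 and 1.66). Of the 6 vessel and mural cell markers 5 rose in vehicle against WT, and Cldn5 and Cdh5 of the vessel wall fell in TMB against vehicle (-0.34 and -0.31), which neither did without vehicle retina 4. The 6 summed to 374 to 398 CPM in WT and 694 to 914 CPM in vehicle retinas, and the 4 lens and cornea markers to at most 6.39 CPM in any retina. The part of these cells in the levels of the members was not tested.

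**Figure D4:**
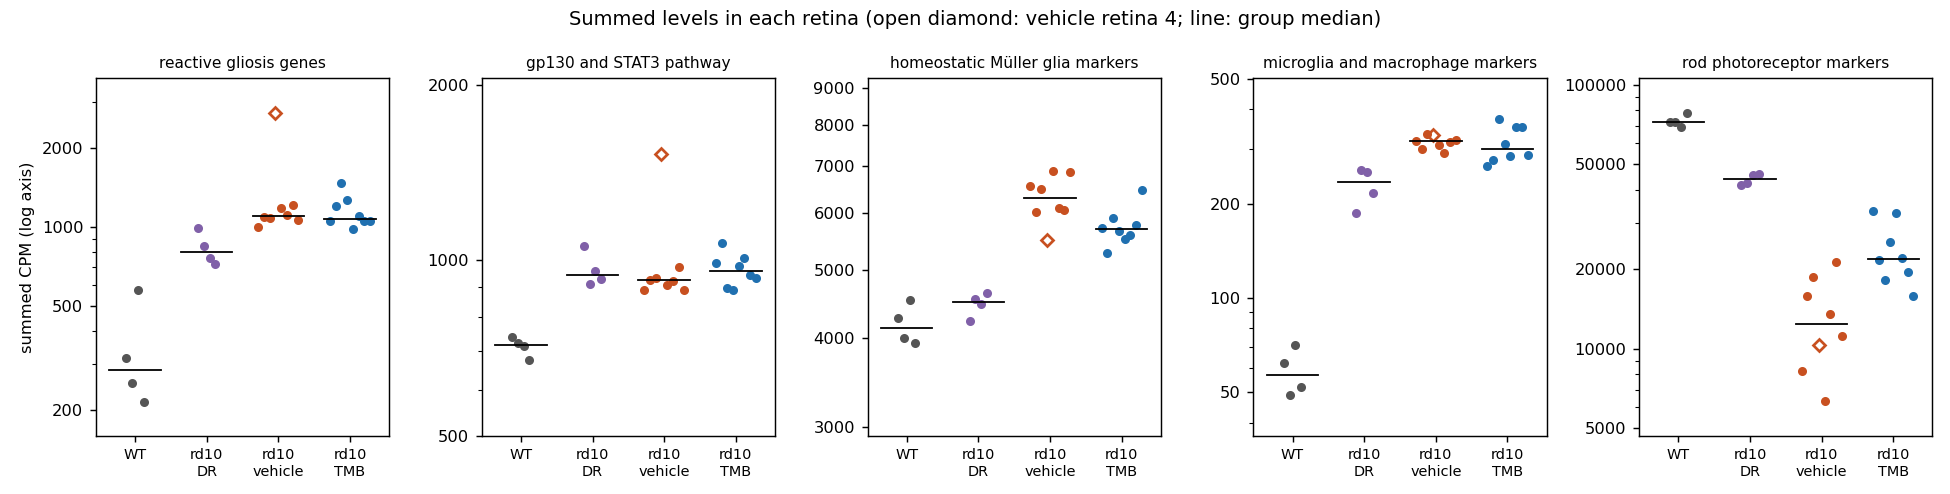
Summed CPM (log axes) of the 10 reactive gliosis genes and of 4 other lists in each retina by group. Points are retinas, the open diamond is vehicle retina 4 and lines are group medians. In vehicle retina 4 the gliosis genes sum to 2730 CPM and the gp130 and STAT3 genes to 1520 CPM, while its microglia markers (331 CPM) and rod markers lie within its group and its Müller glia markers (5510 CPM) are the lowest of the group. Of the 1520 CPM, Lif, Socs3 and Stat3 hold 209, 246 and 334 CPM, and the median ratio of the gp130 and STAT3 genes to the other vehicle retinas is 1.07.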

How the data were processed

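The authors sequenced polyadenylated RNA of whole retinas without strand information, used Trimmomatic for trimming, STAR for alignment to GRCm38 and HTSeq for counting by gene. The deposited table holds raw counts per nuclear gene. Fold changes and adjusted p-values of the authors' own comparisons stand beside them and were not used, and no other column of per-sample values was left unmapped. The repeated WT columns were equal, and no pair of libraries of a group was a duplicate (68 pairs).

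Each pair of groups was fitted alone with edgeR 4.0.16 in R 4.3.3 (filterByExpr, TMM scaling, quasi-likelihood F test), with Benjamini-Hochberg adjustment over all genes tested and an adjusted p threshold of 0.05. The fit was also run on simulated counts, in which no library was made to stand apart as vehicle retina 4 does. The outcome of that run is not given here. Intervals of 95% follow from the standard error by the normal distribution. They are narrower than the F test would give, so that an interval can leave out 0 where the unadjusted p is above 0.05. Retina numbers follow the order of the samples and pair nothing. Depth, 56799680 to 86471014 counts, gives at least 20 counts for each member in each retina.

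The members and the 14 other lists were chosen with earlier results of these data known, and 115 of the 130 genes of those lists (members not included) have a row. The text names all members, from each list up to 3 called genes with the largest change per comparison described (all genes of short lists), and the 5 genes most like the members. Lif, Osmr, Clcf1, Lifr and Ptgs2 in vehicle retina 4 and TMB retinas were named after their values were seen. Alternatives were no TMM, no low-count filter, a robust spread, sex or title prefix as a term, 1 fit over all 4 groups, DESeq2 1.42.0, title prefixes alone, and leaving out retinas.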

Additional observations from a re-analysis of the deposited data

Results flagged for a closer look

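In each of the 4 groups each member was screened for a retina that stood apart from the rest of its group by Dixon's gap-to-range ratio, which chance exceeds in about 1 of 20 groups. Of 40 such screens 14 gave a flag, always a highest retina, and 10 of them were vehicle retina 4. They are not independent, since the members share the retina.

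In vehicle retina 4 the values were 577 CPM for Gfap (the other 7 at 166 to 276), 575 CPM for Vim (272 to 338), 298 CPM for Serpina3n (137 to 183), 325 CPM for A2m (146 to 214) and 123 CPM for Lcn2 (15 to 30.6). They were 137 CPM for Cd44 (49.9 to 75.4), 24.1 CPM for Timp1 (4.17 to 6.19), 144 CPM for Cebpd (25.0 to 45.2), 405 CPM for Flnc (15.1 to 19.4) and 119 CPM for S1pr3 (58.5 to 83.2).

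In WT retina 3, Vim was at 388 CPM (the other 3 at 133 to 160) and Lcn2 at 5.85 CPM (3.92 to 4.10). In DR retina 1, Cd44 was at 57.6 CPM (35.4 to 38.6). In TMB retina 2, Flnc was at 39.2 CPM (the other 7 at 15 to 19.5), beside 93.9 CPM of Lif.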

How the results depend on the processing

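No paired analysis was possible because the labels give no number that pairs retinas across groups. Of the alternative counts of called members 101 stayed within 1.5 times the main count and 5 did not. For vehicle against DR, 2 of the main 6 calls were left with a robust spread, and 2 to 6 when 1 retina was left out. For TMB against vehicle DESeq2 called 1 member in place of 0. Leaving out 1 retina gave 9 to 10 calls for vehicle and for TMB against WT, 8 to 10 for DR against WT, and 0 for TMB against vehicle and for the sex difference.

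Of the alternative log2 fold changes of single members, 956 kept direction and side of the threshold, 58 lost the call, 2 gained it with the same sign (Vim in DR against WT, without WT retina 3 and without WT retinas 1 and 3) and 44 changed sign, each of the latter from a value that was not called. Of these 44, 1 was called after the change of sign, Cebpd in TMB against vehicle by DESeq2. In vehicle against DR this was Cebpd (0.13), at -0.46 with RD10 titles only and at -0.37 to 0.33 when 1 retina was left out.

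In TMB against vehicle, RD10 titles only gave 0.23 for Vim, 0.17 for Serpina3n, 0.10 for A2m, 0.14 for Cd44, 0.20 for Timp1, 0.54 for Cebpd and 0.09 for S1pr3. DESeq2 gave 0.09 for Lcn2, 0.15 for Timp1, 0.41 for Cebpd and 0.15 for Flnc. Cebpd was at 0.01 with sex as a term, 0.03 with title prefix as a term and 0.01 without TMB retinas 2, 3 and 4. Without those 3 and vehicle retina 4, a set chosen after the data were seen, Lcn2 was at 0.21, Timp1 at 0.03, Cebpd at 0.51 and S1pr3 at 0.02. Leaving out 1 retina gave -0.15 to 0.14 for Vim, -0.14 to 0.10 for Serpina3n, -0.07 to 0.11 for A2m, -0.63 to 0.10 for Lcn2, -0.50 to 0.16 for Timp1, -0.15 to 0.45 for Cebpd, -2.0 to 0.15 for Flnc and -0.12 to 0.04 for S1pr3. The sex difference without vehicle retina 4 was 0.23 for Gfap, 0.35 for Lcn2, 0.25 for Cd44, 0.37 for Timp1 and 0.49 for Flnc. The causes of these shifts were not tested. With 20 to 110 counts in WT, Timp1 is the member that depth limits most.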
